A study of Homo sapiens with 30 samples.

Results

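RBPMS knockout 1 (KO1) was compared with its own control group (WT1) in 5637 cells, a human bladder carcinoma cell line. The members are the 6 libraries whose titles name KO1 (3 libraries, genotype RBPMS-KO) or WT1 (3 libraries, genotype WT), of 30 libraries in the series. All genes of the count table were examined, 60612 by Ensembl identifier, of which 42020 have a current symbol. Another knockout of the same gene (KO2, 3 libraries) with its own controls (WT2, 3 libraries) was used where a change of KO1 is compared with the change in KO2. The labels give neither a drug nor a time point for these libraries. One siRNA transfection protocol stands in the treatment field of every library of the series, but no siRNA is named for the KO1, KO2, WT1 and WT2 libraries. The knockouts were made with different sgRNAs and, by the discussion of the study, were grown out from single clones through extended passages, so each knockout is 1 clone, and what is peculiar to a clone and what follows from the loss of RBPMS cannot be told apart in 1 comparison. The study's figures call the controls sgCtrl, whereas the labels call them WT. Nothing in the labels says that the 3 libraries of a group came from separate cultures, so the p-values measure the spread between these libraries, which may be technical.

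RBPMS is an RNA-binding protein with a single RNA recognition motif, known as a regulator of splicing and mRNA fate in smooth and heart muscle. In bladder cancer cells the study asked how its loss alters splicing and transcription, with ANKRD10, an ankyrin repeat protein, and MYC at the centre. MYC is a transcription factor that pairs with MAX, binds E-box sequences and is known to raise genes of ribosome production, nucleotide synthesis and glycolysis. MXD and MGA proteins compete with MYC for MAX or its relatives. 5637 cells carry the keratins and TP63 of basal urothelium rather than the uroplakins of the umbrella layer.

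The libraries held 44593108 to 67061565 counts, of which 6.94% to 7.94% came from mitochondrial DNA, and Pearson correlations of log2 values were 0.962 to 0.977 within and 0.938 to 0.952 between groups. On a principal component plot the first component (50.4% of the variance) separated the groups, and the second (18.1%) lay mainly within KO1, with replicate 2 farthest from replicate 3. In these cells CDH1, EPCAM, KRT8, KRT18 and KRT19 together had 2366 to 2605 CPM (counts scaled to a fixed library total). Of 5 immune markers, 4 had no count and CD14 stayed between 0.67 and 1.28 CPM. All 4 endothelial markers together reached at most 3 and all 4 neural markers at most 0.73 CPM.

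By edgeR's quasi-likelihood test, with p-values adjusted over the 17865 genes that passed the filter on low counts, 6454 genes (36.1%) had an adjusted p-value under 0.05, 3204 higher (17.9%) and 3250 lower (18.2%). These are the genes said below to have risen or fallen. A change of at least 2-fold was found for 1149 genes (6.43%), 375 higher (2.1%) and 774 lower (4.33%). The libraries of KO1 and WT1 did not overlap for 48.7% of all genes tested. A test of the difference between the change in KO1 and the change in KO2, over 19189 genes, called 4474 (23.3%), with the KO1 change the higher in 11.2% of genes and the lower in 12.1%. Beside it, KO2 against WT2 called 38.5% of 18267 genes, 19.3% higher and 19.2% lower. Of the genes called in KO1, 2871 were also called in this difference. Of those, 2100 were not called in KO2, were not tested there or moved the other way there.

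RBPMS itself (ENSG00000157110, chromosome 8, plus strand, 30384479 to 30572261 of GRCh38) had normalized counts of 2180.1, 2362 and 2240.2 in WT1 and 844, 852 and 799.7 in KO1. It was lower in all KO1 libraries (log2 fold change −1.44, SE 0.07, adjusted p = 1.25e-07). RBPMS2, its close paralog, had 606, 666 and 493 in WT1 and 506, 476 and 607 in KO1, groups that overlapped, and no call (log2 fold change −0.15, adjusted p = 0.447). ANKRD10 mRNA, all isoforms counted together, had 10629, 10901 and 11142 in WT1 and 4853, 5045 and 4573 in KO1 and fell (log2 fold change −1.18, SE 0.05, adjusted p = 6.55e-08). Of the 12 members of the MYC, MAX and MXD network tested, 3 rose and 4 fell. MYC had 8102, 7454 and 7480.1 in WT1 and 10285, 10104 and 10469.8 in KO1 (log2 fold change 0.42, SE 0.05, adjusted p = 7.32e-05), and MAX had 2866, 2582 and 2811 in WT1 and 3769, 3362 and 3802 in KO1 (log2 fold change 0.41, SE 0.07, adjusted p = 7.09e-04). In both the KO1 libraries were all above the controls, and the difference from KO2 was 0.25 for MYC (adjusted p = 0.028) and 0.30 for MAX (adjusted p = 0.0222), and these calls were lost in 7 (MYC) and 6 (MAX) of the 12 fits that left out a library, with adjusted p-values up to 0.0894 and 0.0727. The MAX partners MXD4 (−0.64, SE 0.10), MXD3 (−0.62, SE 0.14) and MGA (−0.34, SE 0.06) fell, as log2 fold changes.

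Genes that assemble ribosomes in the nucleolus moved together. Of 58 tested, 46 rose and 1 fell, with a median log2 fold change of 0.47 against −0.002 over all genes tested. The largest rises were those of MYBBP1A, a nucleolar MYB-binding protein, DDX21, an RNA helicase of rRNA processing, LYAR and BOP1, a processing factor of the large subunit. DDX21 had normalized counts of 10664, 11467 and 11936 in WT1 and 18784, 20653 and 19378 in KO1. MYBBP1A had 2995, 3023 and 2829 in WT1 and 5121, 5141 and 5005 in KO1, and neither gene's groups overlapped. Log2 fold changes were 0.79 (SE 0.05) for MYBBP1A, 0.79 (SE 0.06) for DDX21, 0.69 (SE 0.08) for LYAR and 0.69 (SE 0.06) for BOP1. The member that fell was FBL, the rRNA methyltransferase fibrillarin, which lies on chromosome 19 (log2 fold change −0.32, SE 0.04, adjusted p = 2.51e-04). In KO2 the list gave 50 rises and 1 fall, and 19 of 58 members were called in the difference (32.8% against 23.3% of all genes).

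Because MYC and MAX bind the E-box CACGTG, the promoter windows of these genes were searched for it. Windows run from 250 bases before to 50 bases after each RefSeq start (GRCh38.p14), and a gene counts when any of its windows holds the motif, which is its own reverse complement. Of 50 nucleolar genes with a window, 23 (46%) held CACGTG, as against 12.4% of 11008 protein-coding genes tested, 15.1% of those that rose, 11.3% of those that fell and 11.6% of those not called. Genes have between 1 and several windows, and the nucleolar genes had 63 in all. The 3 list members with an E-box and the largest rise, with means of at least 50, are shown to place the motif against the start, which is base 251. The E-box is in capitals.
DDX21 (chr10:68956397-68956696, plus strand): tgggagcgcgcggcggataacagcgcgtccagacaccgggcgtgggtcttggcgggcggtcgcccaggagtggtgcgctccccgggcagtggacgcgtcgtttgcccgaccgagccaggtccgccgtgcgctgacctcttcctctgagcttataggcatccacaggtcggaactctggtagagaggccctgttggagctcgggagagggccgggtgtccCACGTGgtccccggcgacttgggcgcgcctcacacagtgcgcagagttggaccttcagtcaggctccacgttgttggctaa
MYBBP1A (chr17:4555335-4555634, minus strand): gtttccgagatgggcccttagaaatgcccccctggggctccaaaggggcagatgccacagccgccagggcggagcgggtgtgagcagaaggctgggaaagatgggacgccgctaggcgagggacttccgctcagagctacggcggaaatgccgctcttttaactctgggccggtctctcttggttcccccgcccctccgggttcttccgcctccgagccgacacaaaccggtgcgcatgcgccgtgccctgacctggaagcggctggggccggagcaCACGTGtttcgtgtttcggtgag
LYAR (chr4:4289972-4290271, minus strand): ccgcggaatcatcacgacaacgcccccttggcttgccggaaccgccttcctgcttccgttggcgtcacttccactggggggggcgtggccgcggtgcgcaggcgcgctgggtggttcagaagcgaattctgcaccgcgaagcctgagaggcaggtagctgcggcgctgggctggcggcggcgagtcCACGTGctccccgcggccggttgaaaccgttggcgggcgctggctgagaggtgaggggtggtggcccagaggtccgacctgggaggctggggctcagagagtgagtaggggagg
The E-box begins 31 bases before the start in DDX21 and 64 bases before it in LYAR, and in MYBBP1A it lies 27 bases after the first transcribed base. A match is a description of the sequence and no measure of binding.

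Other genes of protein synthesis rose more often than they fell. Of 78 mitochondrial ribosomal protein genes 50 rose and 3 fell (median 0.25 on the log2 scale), of 54 translation factors 31 rose and 7 fell (median 0.23), and of 35 aminoacyl-tRNA synthetases 24 rose and 1 fell (median 0.35). Of the falls, 4 translation factors and 1 mitochondrial ribosomal protein gene lay outside chromosomes 19 and 21. Without WT1 replicate 2, 1 mitochondrial ribosomal protein gene fell, and without WT1 replicate 1 or KO1 replicate 1 no synthetase fell. KO2 gave 39 rises and 2 falls for mitochondrial ribosomal protein genes, 31 and 4 for translation factors and 21 and 2 for synthetases. The difference called 25.6%, 40.7% and 22.9% of these lists, against 23.3% of all genes. In KO1 single genes changed as follows. MRPL12, EIF5A, the hypusinated elongation factor, and EIF4A1, the cap-complex helicase, rose by 0.60 (SE 0.06), 0.62 (SE 0.05) and 0.54 (SE 0.07) on the log2 scale. EEF1A2, an elongation factor of muscle and nerve on chromosome 20, had 184, 118 and 139 in WT1 and 46.3, 25.5 and 51.7 in KO1 and fell (log2 fold change −1.82, SE 0.32, adjusted p = 9.93e-04), whereas it was higher in KO2 (log2 fold change 1.73).

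Cytosolic ribosomal protein genes split by where they lie. Of 83 tested, 42 rose and 10 fell. All 10 falls were on chromosome 19, and of the 70 members outside chromosomes 19 and 21, 42 rose and the other 28 were not called. The count of rises dropped to 18 without WT1 replicate 1, 25 without WT1 replicate 2 and 19 without KO1 replicate 3. RPS19, the gene mutated in Diamond-Blackfan anaemia, had 28611, 30422 and 30070.4 in WT1 and 19166, 18291 and 21858 in KO1 (log2 fold change −0.59, SE 0.06, adjusted p = 4.24e-05). RPL12, on chromosome 9, rose by 0.46 (SE 0.06) and RPS26, on chromosome 12, by 0.78 (SE 0.06) on the log2 scale. In KO2 the same 83 genes gave 5 rises and 13 falls (median −0.03), and 44 of them were called in the difference (53% against 23.3% of all genes).

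The proteasome, the protease of ubiquitin-tagged proteins, had 36 of 46 subunit genes higher and 1 lower (median 0.29), and KO2 gave 34 and 1. Of 28 purine and pyrimidine synthesis enzymes, 16 rose and 1 fell, a fall whose call was lost without any 1 library other than KO1 replicate 2. NME1, which phosphorylates nucleoside diphosphates, rose by 0.69 (SE 0.05), IMPDH2, the committed step of GTP synthesis, by 0.64 (SE 0.06) and CTPS1, which makes CTP, by 0.57 (SE 0.05) on the log2 scale. CTH, the last enzyme of cysteine synthesis from methionine, had 394, 395 and 409.6 in WT1 and 905, 1042 and 1086 in KO1 (log2 fold change 1.34, SE 0.10, adjusted p = 3.60e-06), a larger rise than in KO2 (log2 fold change 0.21, difference 1.12, adjusted p = 4.87e-05). SLC7A5, the leucine importer, rose in both knockouts (0.73 in KO1 and 1.03 in KO2, log2). Nuclear genes of the respiratory chain gave 25 rises and 7 falls of 78, all 7 falls being on chromosome 19 or 21.

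Glycolysis and hypoxia genes rose more often than they fell. Of 26 glycolysis genes 18 rose and 2 fell (median 0.46), and of 32 genes of the hypoxia response, which HIF transcription factors are known to drive, 21 rose and 4 fell (median 0.38). KO2 gave 15 rises and 1 fall for glycolysis and 14 rises and 5 falls for hypoxia. Some genes are in both lists. Without WT1 replicate 1 or 2 or KO1 replicate 1, 1 glycolysis gene fell. SLC2A1, the glucose transporter GLUT1, had 4774, 5032 and 4771 in WT1 and 11227, 10047 and 11841 in KO1 (log2 fold change 1.18, SE 0.06, adjusted p = 2.69e-07). LDHA, which reduces pyruvate to lactate, had 53762, 56754 and 58528 in WT1 and 106554, 114858 and 111505 in KO1 (log2 fold change 0.98, SE 0.05, adjusted p = 1.25e-07). PDK1, the kinase that closes the pyruvate dehydrogenase gate, had 2558, 2644 and 2760.1 in WT1 and 5353, 5423 and 4785 in KO1 (log2 fold change 0.97, SE 0.06, adjusted p = 1.09e-06). In these genes every KO1 library lay above every control, and KO2 gave log2 fold changes of 0.39, 0.32 and −0.03. CA9, a carbonic anhydrase used as a marker of hypoxic tumour cells, was low in WT1 and higher in KO1, with 23.6, 21.8 and 15.8 in WT1 and 119.6, 94.4 and 104.55 in KO1 (log2 fold change 2.38, SE 0.31, adjusted p = 1.66e-04). EGLN3, a prolyl hydroxylase that is itself a HIF target, had 595, 620.4 and 615 in WT1 and 1906, 1696 and 1853 in KO1 (log2 fold change 1.57, SE 0.08, adjusted p = 1.49e-07) and fell in KO2 (log2 fold change −0.68). BNIP3, a receptor for removal of mitochondria chosen after its values were seen, rose by 1.26 (SE 0.07) and STC2, a secreted stanniocalcin, by 1.45 (SE 0.05) on the log2 scale. VEGFA, the angiogenic factor, had log2 fold changes of 0.81 in KO1 and 1.22 in KO2. Of the hypoxia list, 17 of 32 were called in the difference (53.1%), and of the glycolysis list 10 of 26 (38.5%).

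The core ACGTG of the HIF site was present on either strand in the windows of 15 of 28 hypoxia genes (53.6%) and 14 of 24 glycolysis genes (58.3%), against 31.7% of the protein-coding genes tested. These letters lie within CACGTG too, so a gene with an E-box is counted under both. The hypoxia genes had 38 windows in all, the glycolysis genes 52 and the 11008 protein-coding genes 16096. Glycolysis genes thus had more windows per gene, and the shares are not corrected for this. Of the 15 hypoxia genes with the core, 10 rose and 1 fell in KO1, and of the 14 glycolysis genes 10 rose and 1 fell. The windows of CA9 and BNIP3 are shown with the core in capitals. By the rule used for the E-box windows, these genes rose most among the hypoxia list members that hold it.
CA9 (chr9:35673678-35673977, plus strand): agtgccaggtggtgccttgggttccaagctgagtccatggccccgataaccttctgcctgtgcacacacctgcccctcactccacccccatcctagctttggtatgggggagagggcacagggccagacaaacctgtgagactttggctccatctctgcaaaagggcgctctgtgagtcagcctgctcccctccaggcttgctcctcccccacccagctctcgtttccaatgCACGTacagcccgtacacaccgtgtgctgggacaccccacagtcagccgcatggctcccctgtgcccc
BNIP3 (chr10:131981874-131982173, minus strand): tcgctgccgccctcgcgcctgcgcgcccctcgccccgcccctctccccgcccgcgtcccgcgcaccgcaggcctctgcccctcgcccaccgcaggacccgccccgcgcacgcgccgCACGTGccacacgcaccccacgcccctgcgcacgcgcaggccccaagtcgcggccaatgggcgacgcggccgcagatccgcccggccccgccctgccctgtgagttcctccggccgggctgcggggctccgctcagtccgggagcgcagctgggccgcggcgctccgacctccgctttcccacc
The core begins 18 bases before the start of CA9, on the strand opposite to the gene, and the matches of BNIP3 on both strands overlap within 1 E-box.

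**Figure D1:**
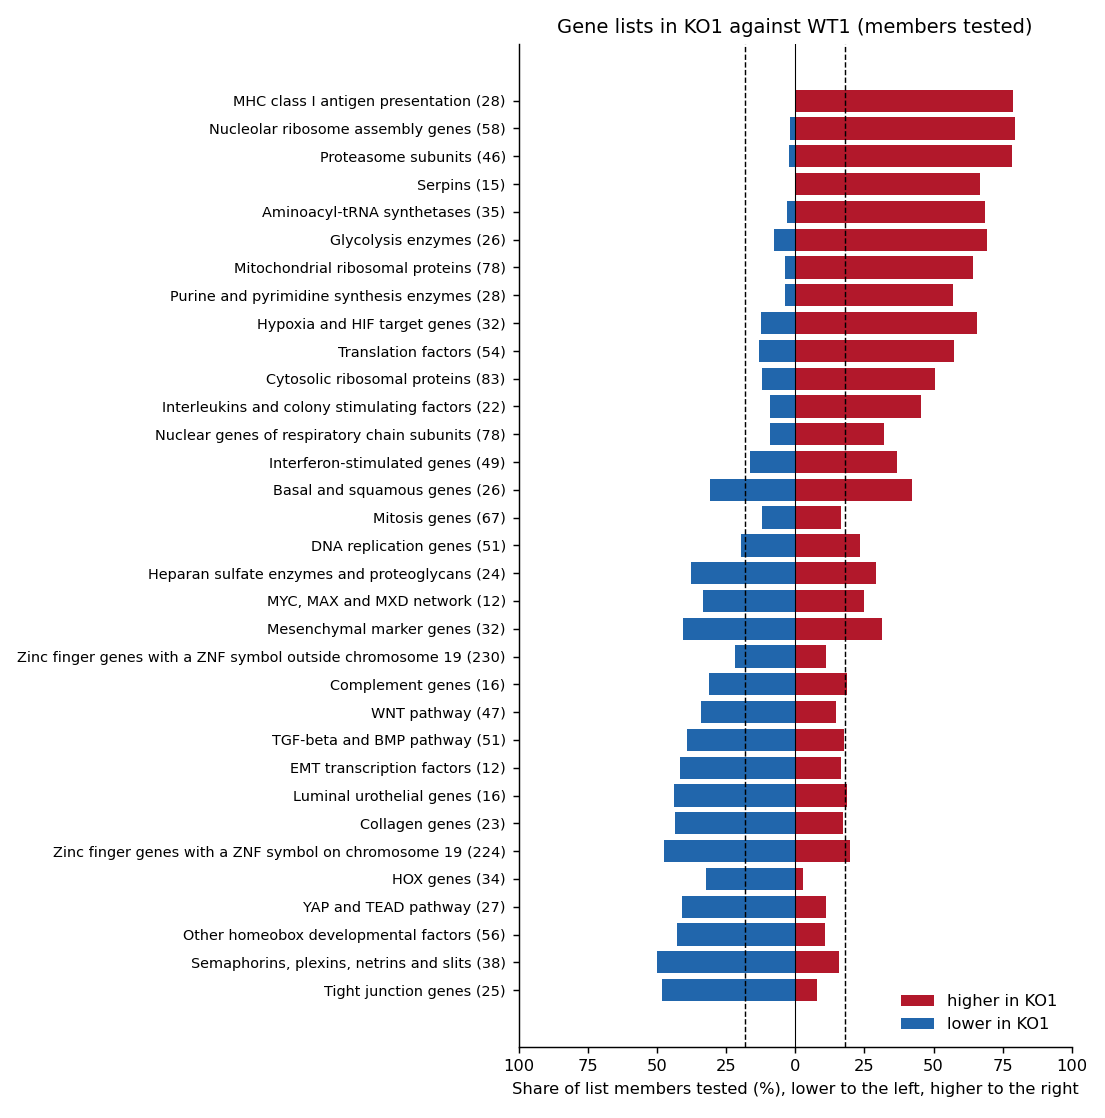
Number of genes of each list that were higher (right) or lower (left) in KO1 than in WT1 at an adjusted p-value under 0.05, as a percentage of the members tested, with the share over all genes tested as dashed lines (17.9% higher and 18.2% lower). Nucleolar genes, proteasome subunits, hypoxia and glycolysis genes and MHC class I genes lie to the right, whereas HOX genes, homeobox genes and semaphorins lie to the left.

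Genes of antigen presentation by MHC class I, which shows peptides to T cells, rose together. Of 28 tested, 22 rose and the other 6 were not called (median 0.58). KO2 gave 12 rises and 3 falls, and 19 of 28 were called in the difference (67.9%). HLA-B, a classical heavy chain, had 2645, 2468 and 2581 in WT1 and 7545, 6794 and 7634 in KO1 (log2 fold change 1.51, SE 0.06, adjusted p = 2.70e-08). HLA-C had 2995, 3094 and 3062 in WT1 and 5258, 5039 and 5561 in KO1 (log2 fold change 0.79, SE 0.05, adjusted p = 1.61e-06). For both genes all KO1 libraries exceeded all controls, and the log2 fold changes in KO2 were −0.03 and 0.14. HLA genes are near-identical in parts and vary between people, so the split of reads among them is uncertain.

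The immunoproteasome subunits, which replace standard subunits and favour peptides for MHC class I, rose together. PSMB9 had 867, 736 and 768 in WT1 and 2122, 2043 and 2305 in KO1 (log2 fold change 1.45, SE 0.09, adjusted p = 5.10e-07). PSMB8 and PSMB10 rose by 0.87 (SE 0.07) and 0.82 (SE 0.09), and the activator PSME2 by 0.69 (SE 0.06) on the log2 scale. The peptide pump subunits TAP1 and TAP2 rose by 0.72 (SE 0.06) and 0.96 (SE 0.06), and the editing protein TAPBPL by 1.43 (SE 0.17). In KO2, PSMB9, PSMB8 and PSMB10 had log2 fold changes of 0.08, −0.03 and 0.16, PSME2 0.025 and TAPBPL 0.065. TAP1 and TAP2 rose in KO2 too (0.155 and 0.66). The known transactivators of antigen presentation genes also rose in KO1. NLRC5, for class I, had 416, 629 and 546 in WT1 and 972, 801 and 877 in KO1 (log2 fold change 0.74, SE 0.14, adjusted p = 0.00212). CIITA, for class II, had 219, 177 and 84.6 in WT1 and 436, 565 and 681 in KO1 (log2 fold change 1.81, SE 0.29, adjusted p = 6.69e-04) and fell in KO2 (log2 fold change −0.99). Among 5 class II genes tested, CD74, the invariant chain, rose with 15.04, 13.5 and 31.5 in WT1 and 96.02, 89.3 and 153 in KO1 (log2 fold change 2.47, SE 0.40, adjusted p = 6.69e-04), and HLA-DRA rose from near 0, with 0, 0 and 4.15 in WT1 and 16.9, 19.1 and 22.6 in KO1. The HLA-DRA call (adjusted p = 0.0152) was lost without WT1 replicate 1, WT1 replicate 2 or KO1 replicate 3 (adjusted p from 0.0566 to 0.0631 with edgeR).

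Interferon-stimulated genes, the antiviral genes that STAT and IRF factors switch on, did not move as 1 group. Of 49 tested 18 rose and 8 fell (median 0.15), where 17.9% of all genes tested rose and 18.2% fell. KO2 gave 8 rises and 19 falls (median −0.13), and 22 of 49 were called in the difference (44.9% against 23.3% of all genes). IFI35 had 60.1, 132 and 106 in WT1 and 404, 374 and 453 in KO1 (log2 fold change 2.04, SE 0.25, adjusted p = 1.03e-04). TRIM22 and IFIT3 rose by 1.51 (SE 0.26) and 1.18 (SE 0.10) and GBP1 by 1.09 (SE 0.07). MX1, a GTPase on chromosome 21 that blocks viral replication, had 280.3, 184 and 161 in WT1 and 73.3, 84.2 and 70.1 in KO1 (log2 fold change −1.46, SE 0.26, adjusted p = 0.00105) and rose in KO2 (log2 fold change 1.05). OAS1 fell by 1.08 (SE 0.14) and SAMD9 by 1.07 (SE 0.08) on the log2 scale. The motif GAAANNGAAA, a short form of the interferon response element searched on both strands, was in the windows of 11 of 24 class I genes (45.8%) and 28 of 39 interferon-stimulated genes (71.8%), against 4.1% of protein-coding genes tested. TAP2 and PSMB8 are shown with it in capitals. By the rule used for the E-box windows, they rose most among the class I genes with this motif.
TAP2 (chr6:32838690-32838989, minus strand): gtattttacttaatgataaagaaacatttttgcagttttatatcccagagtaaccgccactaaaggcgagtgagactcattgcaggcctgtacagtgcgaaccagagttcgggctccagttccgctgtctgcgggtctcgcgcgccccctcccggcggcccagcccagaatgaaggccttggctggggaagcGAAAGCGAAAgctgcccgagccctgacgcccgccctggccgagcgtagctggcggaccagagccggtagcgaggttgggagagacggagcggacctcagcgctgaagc
PSMB8 (chr6:32843998-32844297, minus strand): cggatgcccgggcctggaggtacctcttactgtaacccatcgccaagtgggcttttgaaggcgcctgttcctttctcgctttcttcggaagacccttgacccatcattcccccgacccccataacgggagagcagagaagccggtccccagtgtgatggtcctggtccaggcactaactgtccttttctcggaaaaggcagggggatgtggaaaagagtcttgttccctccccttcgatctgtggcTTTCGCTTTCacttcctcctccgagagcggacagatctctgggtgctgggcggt
The motif begins 58 bases before the start in TAP2 and 4 bases before it in PSMB8. Of the 28 interferon-stimulated genes that hold it, 12 rose and 3 fell in KO1.

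SERPINB9, the inhibitor of granzyme B that shields cells from cytotoxic lymphocytes, had 107, 86.1 and 129 in WT1 and 1698, 1688 and 1783 in KO1 (log2 fold change 3.99, SE 0.13, adjusted p = 9.96e-09). It went the other way in KO2, with means of 101.40 in WT2 and 4.33 in KO2 on the scale of those libraries. Of 15 serpins tested, 10 rose and the other 5 were not called, among them SERPINB3 (1.81, SE 0.14), a squamous cell antigen. In the same direction, 10 of 22 interleukin and colony stimulating factor genes rose and 2 fell, and 1 fell where any 1 library other than WT1 replicate 1 was left out. IL1B, the pyrogenic cytokine, had 1716, 1454 and 1702 in WT1 and 6531, 6433 and 7486 in KO1 (log2 fold change 2.07, SE 0.08, adjusted p = 2.64e-08), and CSF2, or GM-CSF, rose by 2.16 (SE 0.41). KO2 gave 3.07 for IL1B and 2.63 for CSF2. PTGS2, the inducible cyclooxygenase, fell in KO1 and rose in KO2 (log2 fold changes −0.59 and 1.37, difference −1.97, adjusted p = 1.20e-07), and so did the neutrophil attractant CXCL8 (−0.38 and 1.39), a fall whose adjusted p by edgeR was 0.0622 without WT1 replicate 3 and 0.433 against all 6 control libraries. Of 16 complement genes 3 rose and 5 fell, with C1S, a protease of the classical pathway, higher (log2 fold change 1.57, SE 0.11, adjusted p = 1.52e-06). Without WT1 replicate 1 or KO1 replicate 3 the complement falls numbered 3.

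The cells kept an epithelial profile while genes of urothelial identity moved apart. In bulk RNA, fewer cells of a kind and less RNA in each cell cannot be told apart. CDH1, or E-cadherin, had 12025, 12066 and 11741 in WT1 and 13638, 12764 and 13165 in KO1 (log2 fold change 0.14, SE 0.04, adjusted p = 0.0276). This call was lost whenever any library but KO1 replicate 2 was left out (adjusted p from 0.0572 to 0.102 with edgeR). CDH2, or N-cadherin, had 4372, 3992 and 4144 in WT1 and 2274, 2133 and 2123 in KO1 and fell (log2 fold change −0.94, SE 0.06, adjusted p = 8.59e-07), whereas it rose in KO2 (log2 fold change 1.46, difference −2.40, adjusted p = 1.50e-12). VIM, or vimentin, rose from low levels, with 242, 236 and 274 in WT1 and 4272, 3580.2 and 4004 in KO1 (log2 fold change 3.98, SE 0.09, adjusted p = 2.81e-09), and rose in KO2 as well (3.35). CDH4, or R-cadherin, fell in KO1 and rose in KO2 (−0.72 and 0.85, difference −1.57, adjusted p = 1.17e-06).

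Among 16 luminal genes tested, 3 rose and 7 fell, and the rises came down to 1 without WT1 replicate 2 or KO1 replicate 3. GATA3, the luminal lineage factor, had 3239, 3044 and 3102 in WT1 and 1275, 1301 and 1098 in KO1 (log2 fold change −1.35, SE 0.07, adjusted p = 3.47e-07). TBX3 had 2871, 2509 and 2553 in WT1 and 1326, 1190.4 and 1276 in KO1 (log2 fold change −1.06, SE 0.07, adjusted p = 1.96e-06) and, like TBX2 (−0.58, SE 0.14), differed from KO2, where the log2 fold changes were 0.21 and 0.46. Of 26 basal and squamous genes 11 rose and 8 fell. KRT14, the keratin of the basal layer, had 27.9, 20.8 and 55.5 in WT1 and 334, 319 and 419 in KO1 (log2 fold change 3.33, SE 0.32, adjusted p = 1.85e-05) and KRT6A, a keratin of activated epithelium, had 5331, 5221 and 4808 in WT1 and 11867, 11307 and 12095 in KO1 (log2 fold change 1.20, SE 0.05, adjusted p = 7.37e-08). TP63, the basal master regulator, fell by 0.56 (SE 0.04) on the log2 scale and IVL, or involucrin, a protein of the cornified envelope, had 197, 211 and 179 in WT1 and 41.3, 44.7 and 48.5 in KO1 (log2 fold change −2.12, SE 0.22, adjusted p = 3.43e-05). KRT14, TP63 and IVL were each called in the difference from KO2. Summed over 6 basal markers the libraries held 1663 to 1719 CPM in WT1 and 1834 to 1953 in KO1. Over 8 luminal markers they held 187 to 196 in WT1 and 144 to 151 in KO1. That luminal sum was nearly all GATA3, FOXA1 and PPARG, as every other luminal marker had at most 0.67 CPM. Like GATA3, FOXA1 fell (log2 fold change −0.33), whereas PPARG rose (0.19).

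Tight junction genes fell more often than they rose. Of 25 tested, 2 rose (1 without WT1 replicate 1 or KO1 replicate 3) and 12 fell. Desmosome genes gave 4 rises and 3 falls of 13, and gap junction genes 3 rises and 2 falls of 13. CRB3, a Crumbs protein of the apical membrane, was almost lost, with 334, 281 and 264 in WT1 and 0, 7.66 and 4.31 in KO1 (log2 fold change −6.32, SE 0.52, adjusted p = 6.27e-06). Its change in KO2 differed (log2 fold change 0.08, difference −6.41, adjusted p = 1.39e-07), and it was the only tight junction gene of 25 called in the difference. Of 12 transcription factors of the epithelial-mesenchymal transition, SNAI2, or Slug, and ZEB2 rose (0.55, SE 0.07 and 0.55, SE 0.14), and 5 fell, including TCF4 (−0.90, SE 0.12) and KLF8 (−1.15, SE 0.20). Against all 6 control libraries the log2 fold change of SNAI2 was 0.29 and its adjusted p by edgeR 0.0620. Of 32 mesenchymal genes, 10 rose and 13 fell, as against 20 and 4 in KO2. LUM, or lumican, had 206, 234 and 186 in WT1 and 0, 10.2 and 0 in KO1. SPARC, a matricellular protein, had 133, 145 and 142 in WT1 and 13.5, 11.5 and 0 in KO1, and THY1 had 670.1, 757 and 780.2 in WT1 and 151, 108 and 179 in KO1 (log2 fold change −2.33, SE 0.17, adjusted p = 3.18e-06). THY1 rose in KO2 (0.85). Of 6 fibroblast and smooth muscle markers, 5 passed the filter, of which LUM and COL1A1 fell and PDGFRB rose, and the sum over all 6 was 58.7 to 62.2 CPM in WT1 and 36.3 to 43.6 in KO1. The part of other cells in these falls was not tested.

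COL12A1, a collagen that coats fibrils, had 115135, 115733 and 111083 in WT1 and 65801, 65057 and 64321 in KO1 (log2 fold change −0.81, SE 0.04, adjusted p = 1.25e-07). COL4A5, of the basement membrane, had a log2 fold change of −0.70 (SE 0.06), and KO2 gave −0.04 and 0.01. Of 23 collagen genes 4 rose and 10 fell. The change was at least 2-fold for 2 of these rises and 1 of these falls, whereas both collagen genes named here fell by less than 2-fold. The collagenase MMP13 had 3677, 4064 and 4563 in WT1 and 906, 866 and 891 in KO1 (log2 fold change −2.21, SE 0.08, adjusted p = 1.88e-08), with −1.02 in KO2. MMP10, MMP12 and MMP7 fell in both knockouts (−2.13, −1.82 and −1.68 in KO1, −2.72, −4.96 and −1.05 in KO2), whereas TIMP3, an inhibitor, and MMP14, the membrane-bound activator, rose (0.55, SE 0.06 and 0.22, SE 0.04). The integrin chains ITGB6 and ITGB8, which activate TGF-beta, fell (−0.78, SE 0.06 and −0.85, SE 0.07).

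Heparan sulfate genes contained near-complete losses. GPC4, a glypican that carries heparan sulfate chains on the cell surface, had 3665, 3680.0 and 3572 in WT1 and 0, 20.4 and 0 in KO1 (log2 fold change −9.32, SE 0.37, adjusted p = 2.93e-08). Its KO2 change was −0.81, and the difference was −8.52 (adjusted p = 1.60e-10). HS6ST2, a 6-O-sulfotransferase whose gene lies beside GPC4 on chromosome X (132626016 to 132961395, minus strand, with GPC4 at 133300103 to 133415490, minus strand, GRCh38), had 486, 523 and 463 in WT1 and 14.3, 15.3 and 15.1 in KO1 (log2 fold change −5.03, SE 0.19, adjusted p = 2.39e-08). HS6ST3, on chromosome 13, had 137, 198 and 157 in WT1 and 0, 0 and 0 in KO1, at least 54.7-fold lower against a floor of 3 normalized counts. SULF2, which removes 6-O-sulfates, rose with 11448, 11149 and 10815 in WT1 and 21505, 20651 and 23079 in KO1 (log2 fold change 0.96, SE 0.05, adjusted p = 2.81e-07). Of 24 genes in the list 7 rose and 9 fell, and 15 were called in the difference (62.5%). The rises numbered 4 without WT1 replicate 1 or KO1 replicate 1 and with the replicate number as a block. All 3 kallikreins that passed the filter, secreted serine proteases of a cluster on chromosome 19, fell from low levels in KO1 and rose in KO2. KLK6 had 48.3, 63.3 and 29.9 in WT1 and 0, 0 and 3.23 in KO1, and means of 56.2 in WT2 and 2037 in KO2. KLK10 had 74.1, 29.1 and 23.2 in WT1 and 0, 0 and 5.39 in KO1, and means of 51.8 in WT2 and 1870 in KO2. KLK5 had 30.1, 22.8 and 29.02 in WT1 and 0, 0 and 0 in KO1, at least 9.1-fold lower than in WT1.

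IGF-binding proteins hold insulin-like growth factors away from their receptor. IGFBP3 had 5619, 5163 and 5173 in WT1 and 1192, 1178 and 1127 in KO1 (log2 fold change −2.19, SE 0.06, adjusted p = 3.91e-09) and rose in KO2 (0.60), IGFBP2 had 444, 333 and 339 in WT1 and 32.9, 53.6 and 55.0 in KO1 (log2 fold change −2.99, SE 0.24, adjusted p = 5.65e-06), and IGFBP5 had 579.9, 476 and 575 in WT1 and 0, 0 and 0 in KO1, at least 181-fold lower. STC1, a stanniocalcin that blocks the cleavage of IGF-binding proteins, had 1159.8, 1303 and 1302 in WT1 and 4071, 3982 and 4293 in KO1 (log2 fold change 1.71, SE 0.07, adjusted p = 2.41e-08), above KO2's 0.30 (difference 1.40, adjusted p = 1.10e-08). Of 51 TGF-beta and BMP genes 9 rose and 20 fell. The ligand BMP4 had 612, 571 and 672 in WT1 and 218, 227 and 180.0 in KO1 (log2 fold change −1.57, SE 0.14, adjusted p = 1.10e-05) and the BMP target ID2 809, 739 and 729.6 in WT1 and 168, 264 and 245 in KO1 (log2 fold change −1.76, SE 0.16, adjusted p = 1.39e-05), and the BMP antagonist NOG rose by 1.91 (SE 0.30). HBEGF, an EGF receptor ligand, had 606, 668 and 638 in WT1 and 2005, 2147 and 2207 in KO1 (log2 fold change 1.73, SE 0.08, adjusted p = 6.65e-08), and it rose in KO2 too (1.77). ERBB4, a receptor of neuregulins, fell by 2.73 (SE 0.43) on the log2 scale. In the WNT list 7 of 47 rose and 16 fell, with WNT4 at 535, 456 and 407 in WT1 and 135, 93.1 and 166 in KO1 (log2 fold change −1.82, SE 0.21, adjusted p = 7.24e-05) and a smaller change in KO2 (−0.19). SHH rose by 1.87 (SE 0.23) while its receptor and target PTCH1 fell by 1.15 (SE 0.09).

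Genes of the YAP and TEAD pathway, which reads cell contact and tension, gave 3 rises and 11 falls of 27 in KO1 and 14 rises and 8 falls in KO2. ANKRD1, a textbook target, had 320.0, 459 and 405 in WT1 and 64.8, 28.1 and 60.4 in KO1 (log2 fold change −2.92, SE 0.28, adjusted p = 1.97e-05). CCN2, another target, had 642, 676 and 719 in WT1 and 283, 242 and 390.2 in KO1 (log2 fold change −1.15, SE 0.16, adjusted p = 2.75e-04). Both were higher in KO2 than in WT2 (log2 fold changes 0.63 and 0.71), and both differences passed (−3.55 with adjusted p = 9.00e-07, and −1.86 with adjusted p = 9.23e-06). Of 38 semaphorin, plexin, netrin and slit genes 6 rose and 19 fell, with 11 and 16 in KO2. The rises in KO1 numbered 3 without WT1 replicate 2 or 3 or KO1 replicate 1 or 3, and without the filter on low counts. ROBO1, the slit receptor, had 3091, 3059.6 and 2981 in WT1 and 558, 487 and 537 in KO1 (log2 fold change −2.53, SE 0.07, adjusted p = 4.67e-09), with −2.29 in KO2, while SEMA6D had 246, 222 and 264 in WT1 and 47.2, 34.5 and 25.9 in KO1 (log2 fold change −2.75, SE 0.26, adjusted p = 1.57e-05) and a smaller change in KO2 (−0.75). Among ephrin receptors EPHB6, which lacks kinase activity, had 2131, 2270.1 and 1967 in WT1 and 296, 223 and 243 in KO1 (log2 fold change −3.05, SE 0.11, adjusted p = 1.81e-08) against −0.76 in KO2.

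Cell cycle genes moved little as groups. Of 67 mitosis genes 11 rose and 8 fell, and of 51 replication genes 12 rose and 10 fell. Without single libraries (WT1 replicates 1 and 2 and KO1 replicate 3 for mitosis, WT1 replicates 1 and 2 and KO1 replicate 1 for replication) the rises came down to 7 and 6. The mitosis falls numbered 5 without WT1 replicate 2 and 4 without WT1 replicate 3 or KO1 replicate 1 or 3, and against all 6 control libraries 20 mitosis genes rose. CCND1, or cyclin D1, which opens G1, had 6209, 5758 and 6224 in WT1 and 15624, 14803 and 13581 in KO1 (log2 fold change 1.27, SE 0.06, adjusted p = 1.06e-07), above KO2's 0.61 (difference 0.66, adjusted p = 1.00e-05). CDKN1C, or p57, an inhibitor of cyclin-dependent kinases, had 186, 213 and 226 in WT1 and 34.5, 31.9 and 46.4 in KO1 (log2 fold change −2.46, SE 0.24, adjusted p = 2.17e-05), with 0.09 in KO2. CDKN2B, or p15, had 1962, 2007 and 1889.5 in WT1 and 519.7, 648 and 509 in KO1 (log2 fold change −1.81, SE 0.10, adjusted p = 3.12e-07), with −1.40 in KO2. FOSL1, an AP-1 subunit, had 638, 684 and 607 in WT1 and 3028, 2399 and 3091 in KO1 (log2 fold change 2.15, SE 0.10, adjusted p = 1.13e-07) and rose in KO2 too (1.88).

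Developmental transcription factors fell more often than they rose. Of 34 HOX genes, which set position along the body axis, 1 rose and 11 fell, and 13 were called in the difference (38.2%). The gene that rose was HOXD13 (log2 fold change 0.79, SE 0.11, adjusted p = 2.30e-04), and HOXA5 had 903, 727 and 869.7 in WT1 and 384, 380.2 and 385 in KO1 (log2 fold change −1.12, SE 0.11, adjusted p = 2.23e-05), with 0.09 in KO2. Of 56 other homeobox genes 6 rose and 24 fell. KO2 gave 8 rises and 22 falls for these, but 7 rises and 4 falls for the HOX genes. Of the other homeobox genes, 18 of 56 were called in the difference (32.1% against 23.3% of all genes). ALX4, of limb and face, had 4.30, 4.15 and 3.32 in WT1 and 527, 473 and 481 in KO1 (log2 fold change 6.95, SE 0.23, adjusted p = 1.16e-08), and MEIS2, a HOX cofactor, had 6822, 6762 and 6630.3 in WT1 and 2778, 2746 and 2711 in KO1 (log2 fold change −1.29, SE 0.05, adjusted p = 1.81e-08). SOX15 rose with 37.6, 28.0 and 38.1 in WT1 and 343, 327 and 454 in KO1 (log2 fold change 3.43, SE 0.23, adjusted p = 1.28e-06), while SOX4 had 89479.8, 84326 and 82423 in WT1 and 51832, 50428 and 48139 in KO1 (log2 fold change −0.77, SE 0.05, adjusted p = 7.51e-07). KLF13 had 313, 209 and 269 in WT1 and 82.5, 119.9 and 122 in KO1 (log2 fold change −1.29, SE 0.23, adjusted p = 0.00116) and rose in KO2 (1.76).

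**Figure D2:**
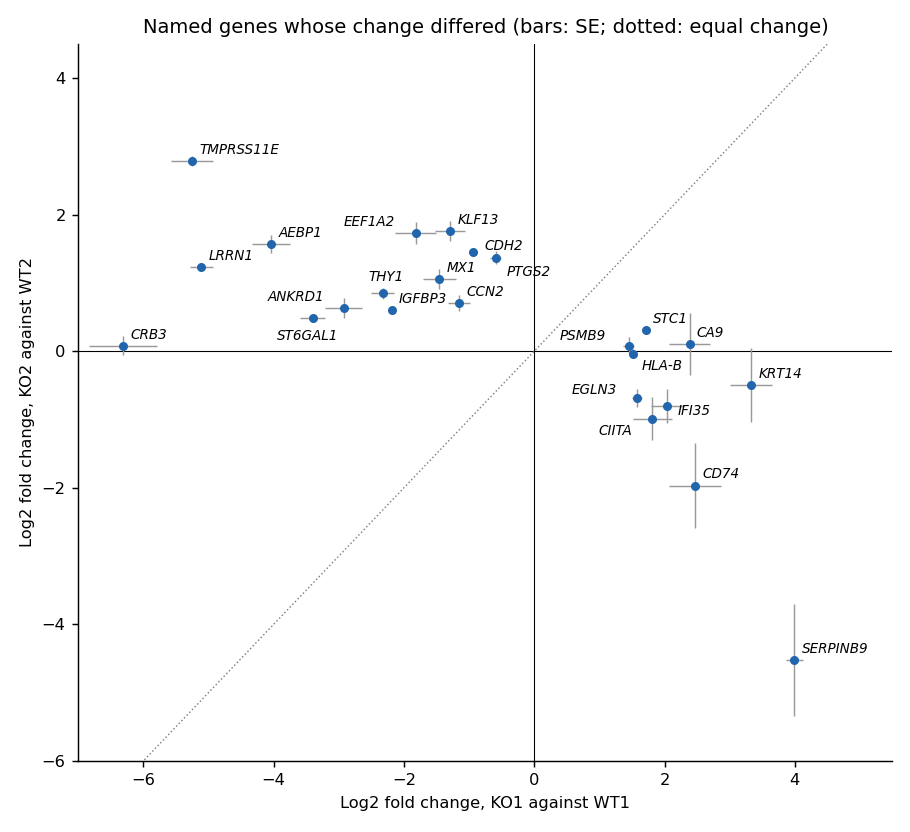
Log2 fold change in KO1 against WT1 (horizontal) and in KO2 against WT2 (vertical) of named genes called in the test of the difference, with standard errors as bars. Points in the lower right or upper left moved in opposite directions, as SERPINB9, EGLN3 and CIITA (lower right) and CDH2, ANKRD1, CCN2, IGFBP3, THY1, MX1 and TMPRSS11E (upper left) did.

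RNLS, TMPRSS11E, CRB3, LRRN1 and AEBP1 had the largest falls relative to KO2 among protein-coding genes whose normalized counts averaged 50 or more, whose KO1 and WT1 libraries did not overlap, and which were not called in the same direction in KO2. GPC4 and IGFBP5, which fell in KO2 too, and the kallikreins, which were under that mean, had large differences as well. RNLS, or renalase, a flavoprotein, had 155, 144 and 142 in WT1 and 0, 0 and 0 in KO1, at least 49-fold lower in KO1, and a log2 fold change of 0.29 in KO2. TMPRSS11E, a serine protease of squamous epithelium, had 786, 756 and 869 in WT1 and 13.5, 40.8 and 11.9 in KO1 (log2 fold change −5.26, SE 0.33, adjusted p = 7.87e-07) and rose in KO2 (2.78). LRRN1, a leucine-rich repeat membrane protein, had 1537, 1381 and 1399 in WT1 and 54.8, 29.4 and 36.6 in KO1 (log2 fold change −5.11, SE 0.17, adjusted p = 1.23e-08), and AEBP1, a carboxypeptidase-like matrix protein, had 318, 262 and 246 in WT1 and 11.8, 24.2 and 15.1 in KO1 (log2 fold change −4.04, SE 0.29, adjusted p = 2.48e-06). Both were higher in KO2 (1.23 and 1.57). TP53I11, DIO2, which activates thyroid hormone, TENM2, a teneurin, and MFAP5, a microfibril protein, fell in KO1 with log2 fold changes of −4.37, −4.10, −2.13 and −2.19 and had 0.94, 1.13, 1.84 and 1.78 in KO2. Cancer-testis genes of chromosome X moved in opposite directions. MAGEA12, MAGEA3 and MAGEA6 fell in KO1 (−3.68, −1.74 and −1.24) with 0.34, 1.66 and 2.64 in KO2, and SPANXB1 rose in both (4.18 and 2.95). MAGEA and SPANX genes have near-identical copies, so the split of reads among them is uncertain. ST6GAL1, a sialyltransferase, had 1274, 1177 and 1232 in WT1 and 137, 70.2 and 136 in KO1 (log2 fold change −3.40, SE 0.20, adjusted p = 4.57e-07), against 0.49 in KO2.

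Chromosome 19 stood apart from the other chromosomes. Of its 1197 genes tested, 108 rose and 553 fell (median log2 fold change −0.38), whereas KO2 had a median of −0.002 there. Chromosome 21 gave 11 rises and 76 falls of 202 genes (median −0.27, with 0.14 in KO2). Chromosome 9 was instead low in KO2 (median −0.413, with 0.07 in KO1), and the median difference between the knockouts was 0.426 there. In bins of 10 Mb with at least 20 genes, 13 of 274 had a median of at least 0.25 in size, 5 of them on chromosome 19 and 2 on chromosome 21, and the bins of chromosome 20 from 0 to 30 Mb had medians of −0.29, −0.26 and −0.34 (0.13, −0.01 and 0 in KO2). The chromosome 19 shift had edges. Bins of 2 Mb from 0 to 12 Mb had medians between −0.55 and −0.31, with 181 of 311 genes lower and 5 higher. From 12 to 20 Mb the medians were 0.08 to 0.13, with 43 genes higher and 18 lower of 211. The bins of 20 to 22 and 22 to 24 Mb had medians of 1.9 and 0.55, and from 32 to 52 Mb all medians lay between −0.64 and −0.34. Outside chromosomes 19 and 21, 3085 genes rose and 2621 fell of 16466 (median 0.017). The number of copies of these chromosomes was not measured, and its part in the result was not tested.

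**Figure D3:**
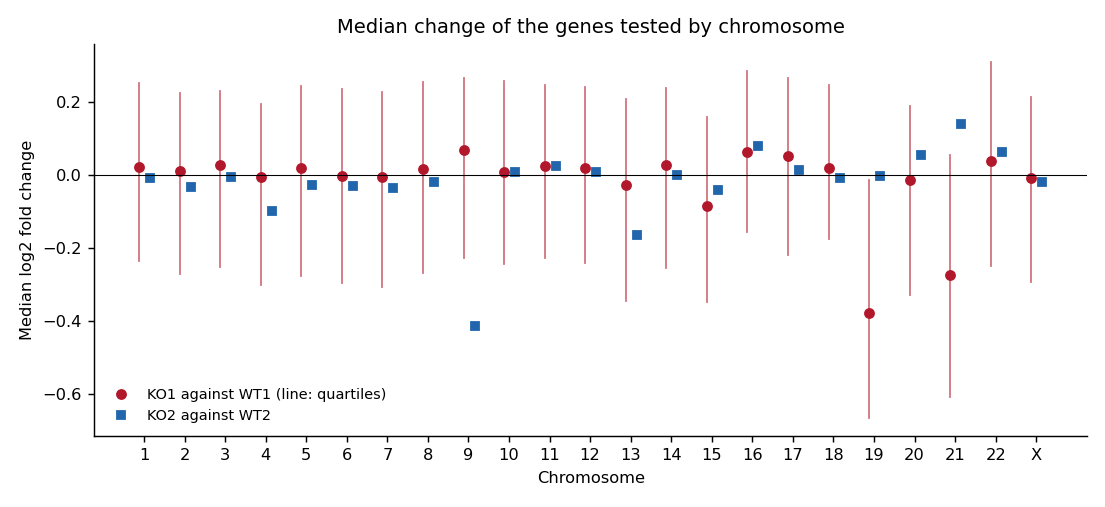
Median log2 fold change of the genes tested on each chromosome in KO1 against WT1 and in KO2 against WT2, with lines from the lower to the upper quartile in KO1. Chromosomes 19 and 21 have the lowest medians in KO1, and neither is low in KO2, where chromosome 9 has the lowest median.

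KRAB-type zinc finger genes, many of which silence transposable elements, are clustered on chromosome 19, and their clusters moved in opposite directions. Of 224 genes with a ZNF symbol there, 44 rose, 32 of them at least 2-fold, and 106 fell, as against 26 rises and 50 falls of 230 on other chromosomes, where the rises numbered 15 to 17 without WT1 replicate 1, 2 or 3 or KO1 replicate 1. KO2 gave 2 rises and 127 falls of 217 on chromosome 19 (medians −0.35 in KO1 and −0.38 in KO2). In the cluster from ZNF101 to ZNF254, next to the centromere on the short arm, 21 of 29 rose and the other 8 were not called (median 1.52, with −0.2 in KO2). ZNF90 had 7.52, 22.8 and 14.1 in WT1 and 659, 658 and 627 in KO1 (log2 fold change 5.44, SE 0.27, adjusted p = 1.49e-07). ZNF737 had 32.2, 28.0 and 21.6 in WT1 and 556, 533 and 496 in KO1 (log2 fold change 4.28, SE 0.20, adjusted p = 8.60e-08). ZNF626 had 3.22, 0 and 6.63 in WT1 and 96.9, 179.9 and 116 in KO1 (log2 fold change 5.18, SE 0.61, adjusted p = 7.91e-05). All 3 were near 0 or low in WT1 and well above it in every KO1 library.

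The long-arm cluster from ZNF610 to ZNF331 gave 12 rises and 5 falls of 22 in KO1 and 18 falls in KO2 (medians 0.77 and −1.03), and 15 of 22 were called in the difference. ZNF320 had 25.8, 21.8 and 26.5 in WT1 and 592, 514 and 508 in KO1 (log2 fold change 4.43, SE 0.18, adjusted p = 4.22e-08) and means of 34.1 in WT2 and 1.61 in KO2. ZNF888 had 50.5, 32.2 and 41.5 in WT1 and 492, 619 and 519.5 in KO1 (log2 fold change 3.71, SE 0.20, adjusted p = 3.39e-07) and means of 85.7 in WT2 and 3.06 in KO2. ZNF600 and ZNF528 rose by 2.09 (SE 0.23) and 1.94 (SE 0.22) and had log2 fold changes of −3.66 and −4.62 in KO2. ZNF347 had 22.6, 12.4 and 31.5 in WT1 and 405, 389 and 396 in KO1. From ZNF583 to ZNF71 there were 3 rises and 1 fall among 5 genes. Between ZNF565 and ZNF573, 6 of 26 rose in KO1, 3 of them at least 2-fold, and 8 fell. In KO2 none of these rose and 16 fell (medians −0.32 in KO1 and −0.54 in KO2). Some other stretches fell in both knockouts. From ZNF574 to ZNF296, 22 of 26 genes fell in KO1 and 18 in KO2 (medians −0.77 and −0.39). Over all genes tested, the bins of 42 to 44 and 44 to 46 Mb had medians of −0.64 and −0.6 in KO1. There 26 of 44 and 45 of 63 genes fell in KO1, and the KO2 medians were −0.03 and −0.06. From ZNF114 to ZNF480, 14 of 15 fell and 1 rose in KO1 and 12 fell in KO2 (medians −0.63 and −0.42). From ZNF628 to ZNF444, 7 of 9 fell in KO1 and 1 in KO2 (medians −0.48 and 0.04). ZNF615, at the lower end of the list, had 1207, 1101 and 1159 in WT1 and 417, 616 and 467 in KO1 (log2 fold change −1.22, SE 0.13, adjusted p = 4.48e-05). These borders were drawn after the values were seen, and paralogs in a cluster share sequence, so the split of reads between neighbours is uncertain. ZFP82, on chromosome 19, and ZFP69, on chromosome 1, carry no ZNF symbol, and both rose in KO1 and fell in KO2. ZFP82 had 264, 218 and 239 in WT1 and 684, 774 and 691 in KO1 (log2 fold change 1.57, SE 0.12, adjusted p = 4.71e-06) and means of 270.0 in WT2 and 11.99 in KO2, and ZFP69 had 19.3, 16.6 and 35.6 in WT1 and 122, 212 and 107 in KO1 (log2 fold change 2.59, SE 0.39, adjusted p = 3.78e-04) and means of 33.4 in WT2 and 0 in KO2.

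**Figure D4:**
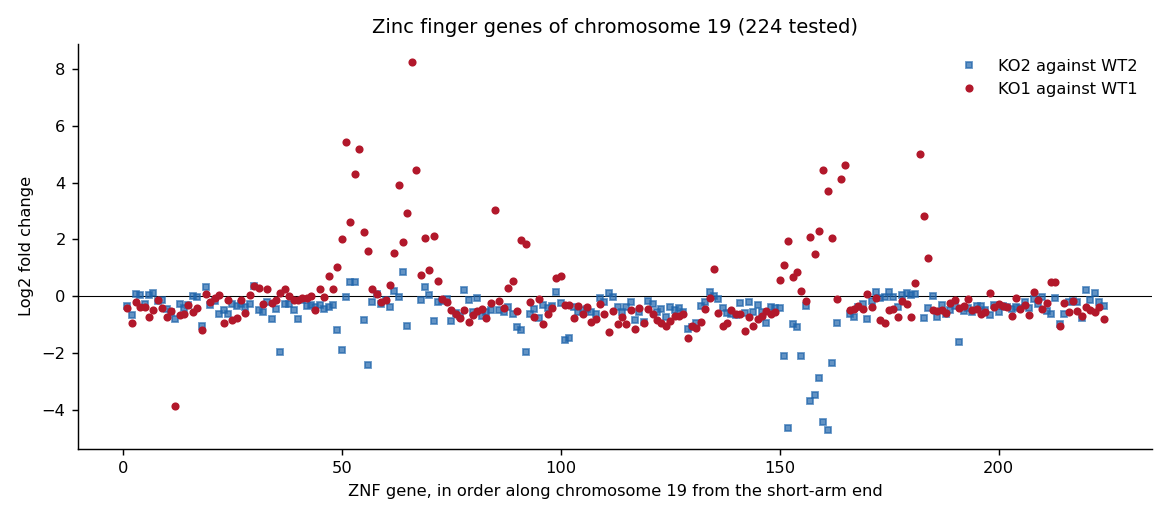
Log2 fold change of the genes with a ZNF symbol on chromosome 19, in their order along the chromosome from the short-arm end, in KO1 against WT1 and in KO2 against WT2. KO1 shows runs of rises from ZNF101 to ZNF254 and from ZNF610 to ZNF331, the latter with falls in KO2. Elsewhere falls outnumbered rises in most stretches, with both from ZNF565 to ZNF573. Genes not tested in KO2 have no KO2 point.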

How the data were processed

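RNA-seq libraries of KO1 and WT1 (3 each) and of KO2 and WT2 (3 each) were analysed. The deposited values are raw counts per Ensembl gene, which the authors made from stranded mRNA libraries. The submitters' processing notes name GRCh38, Trimmomatic 0.36 and featureCounts of Subread 1.5.1, and the methods name HISAT2. The strand setting of the counting is not given in the sources used here. Counts were scaled by TMM, filtered with filterByExpr (minimum count 10), and tested with edgeR 4.0.16 (quasi-likelihood, Benjamini-Hochberg adjustment over all genes tested, R 4.3.3). Printed normalized counts are counts scaled to the mean effective library size. Normalized levels of WT2 and KO2 were scaled among those libraries. The difference between knockouts was a contrast in 1 fit of 12 libraries. The members, the 93 gene lists and the naming rule were chosen with earlier results of these data known. The rule took up to 4 rises and 4 falls per list (called, mean of at least 50, no overlap) and the 12 largest differences from KO2 in each direction. Some genes are not reported here. For a group at 0, folds are bounds against 3 normalized counts per library. In simulated counts of KO1 and WT1 (17429 genes), 98% of 2-fold rises, 80% of falls to 0.5 and 72% of 1.5-fold rises were recovered. Of the simulated calls, 10.7% were false. At each fold 50 genes were changed, all with means of at least 50, and the rest were left unchanged. Far fewer genes change there than were called in the data. These shares therefore do not measure recovery or false calls in the data. Alternatives were other scalings, DESeq2 1.42.0, other filters, other control sets, a replicate block and leaving out each library. Promoter windows are from RefSeq (GRCh38.p14).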

Additional observations from a re-analysis of the deposited data

Results flagged for a closer look

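The change in KO1 against WT1 differed from the change in KO2 against WT2 for 4474 of 19189 genes by edgeR's test of the difference. Of 148 genes named in the text, 121 were among them. The values that follow are differences in log2 fold change, KO1 minus KO2, and for genes with a group at or near 0 they depend on the prior count of the fit. These genes include KLK5, KLK6, KLK10, IGFBP5, RNLS, HS6ST3, LUM, HLA-DRA, ALX4, CRB3, SERPINB9, ZFP69, ZNF320, ZNF888 and ZNF528.

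Both knockouts were called in opposite directions for 39 of these genes. Among them, those with the higher change in KO1 were ZFP69 10.62, ZNF320 8.88, SERPINB9 8.53, ZNF888 8.40, ZNF528 6.55, ZFP82 6.08, ZNF600 5.73, CD74 4.44, IFI35 2.84, CIITA 2.80, EGLN3 2.26 and HOXD13 1.15. Among them, those with the lower change in KO1 were KLK5 −11.01, KLK6 −10.51, KLK10 −9.65, TMPRSS11E −8.07, LRRN1 −6.33, AEBP1 −5.62, TP53I11 −5.33, DIO2 −5.24, MAGEA12 −4.02, TENM2 −3.98, MFAP5 −3.96, MAGEA6 −3.89, ST6GAL1 −3.88 and ANKRD1 −3.55. They were followed by EEF1A2 −3.55, MAGEA3 −3.41, THY1 −3.17, KLF13 −3.06, IGFBP3 −2.79, MX1 −2.51, CDH2 −2.40, PTGS2 −1.97, CCN2 −1.86, CXCL8 −1.78, CDH4 −1.57, TBX3 −1.28 and TBX2 −1.05.

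Both knockouts were called in the same direction, with unequal size, for 47 genes. Of these, those with the higher change in KO1 were MMP12 3.13, SOX15 1.505, STC1 1.40, SLC2A1 0.80, CCND1 0.66, LDHA 0.65, SERPINB3 0.65, HLA-C 0.65, VIM 0.62, C1S 0.61, MMP10 0.59, STC2 0.57, SULF2 0.57 and TAP1 0.56. They were followed by KRT6A 0.39, TAP2 0.29, IMPDH2 0.26, MYBBP1A 0.26, MYC 0.25, CTPS1 0.25 and NME1 0.23. Of these, those with the lower change in KO1 were IGFBP5 −9.46, GPC4 −8.52, HS6ST3 −4.25, LUM −3.21, HS6ST2 −2.46, EPHB6 −2.29, SEMA6D −2.005, ERBB4 −1.78, IGFBP2 −1.44, MMP13 −1.19, IL1B −1.003, BMP4 −0.91, ID2 −0.70 and ITGB8 −0.67. They were followed by ZNF615 −0.62, GATA3 −0.60, MEIS2 −0.53, SAMD9 −0.48, ITGB6 −0.43, MMP14 −0.42, ANKRD10 −0.42, VEGFA −0.42, TIMP3 −0.41, RBPMS −0.36, SOX4 −0.32 and SLC7A5 −0.30.

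For 35 genes, with ZNF347 and HLA-DRA (not tested in KO2) included, 1 of the knockouts was called. In this set, those with the higher change in KO1 were ZNF347 7.19, ALX4 5.99, ZNF90 5.45, HLA-DRA 5.43, KRT14 3.82, ZNF737 3.79, CA9 2.27, TRIM22 1.64, HLA-B 1.54, PSMB9 1.36, TAPBPL 1.36, BNIP3 1.27, IFIT3 1.16 and CTH 1.12. They were followed by PDK1 0.99, PSMB8 0.89, RPS26 0.81, PSME2 0.66, PSMB10 0.66, NLRC5 0.59, SNAI2 0.53, RPL12 0.51 and MAX 0.30. In this set, those with the lower change in KO1 were RNLS −10.55, CRB3 −6.41, CDKN1C −2.56, IVL −2.11, WNT4 −1.63, HOXA5 −1.22, COL12A1 −0.77, COL4A5 −0.71, RPS19 −0.55, TP63 −0.49, MXD4 −0.43 and FBL −0.31.

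The call of a difference was kept in every fit that left out 1 of the 12 libraries for 110 genes and lost in at least 1 such fit for 11. The largest adjusted p-values by edgeR in those fits were 0.0894 for MYC, 0.0727 for MAX, 0.129 for MXD4, 0.0892 for IMPDH2, 0.0655 for VEGFA, 0.105 for NLRC5, 0.128 for HLA-DRA, 0.0545 for SERPINB3, 0.0971 for HS6ST3, 0.0623 for ID2 and 0.106 for ERBB4.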

How the results depend on the processing

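The counts of called genes over all genes kept within 1.5 times their values under the alternatives tried. Genes called in KO1 numbered 6454 and ranged from 5032 to 6400 when 1 library was left out, those of at least 2-fold 1149 and 1012 to 1197, and those called in the difference 4474 and 3782 to 4308. DESeq2 called 6818, 1182 and 4911, the fit without a filter 5652, 1126 and 3770, and all 6 control libraries together gave 7682 and 1364. Of 148 named genes 147 were called, and 143 to 147 under the alternatives, the lowest with a minimum count of 50, which removes genes from the test.

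The replicate numbers are shared by the groups, but same-numbered libraries did not deviate together (correlations −0.01, 0.086 and −0.001, with all 9 pairs between −0.103 and 0.099). With the number as a replicate block 6082 genes were called in KO1, 1048 of at least 2-fold, and 4476 in the difference. Of 2068 refitted fold changes of named genes none changed sign, and 12 lost their call, those of HLA-DRA, CXCL8, CDH1 and SNAI2 (adjusted p = 0.0620 by edgeR for SNAI2 against all 6 controls). The median of the list of EMT transcription factors was −0.18 and turned to 0.11 without the filter on low counts. Of 978 refitted counts of called members of gene lists, 58 moved by more than 1.5 times. They include rises of ribosomal protein genes (42, down to 18 without WT1 replicate 1), of replication genes (12, and 6 without the filter on low counts), of mitosis genes (11, with 20 against all 6 controls and 19 with all 12 libraries in 1 fit), of heparan sulfate genes (7, and 4 with the replicate block) and of semaphorin genes (6, and 3 without the filter), and falls of complement genes (5, and 3 without the filter) and interleukin genes (2, and 1 without the filter or with the replicate block). The HOX rise became 2 without WT1 replicate 3 or against all 6 controls, the synthetase fall 2 against all 6 controls, and the proteasome fall 2 with all 12 libraries in 1 fit. The cause of these changes was not tested. Genes under the filter were not examined at this depth.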
